A study of Mus musculus with 4 samples.

Results

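The Ly49 and NKG2 receptors are lectin-like surface proteins by which natural killer (NK) cells read MHC class I and stress ligands on other cells. The 10 genes described here are the Ly49 genes Klra1, Klra4, Klra6, Klra7, Klra8 and Klra9 and the NKG2-side genes Klrc2, Klrd1, Klre1 and Klrk1. They were matched by symbol among the 32287 features of the count tables, and all 10 were found. They were followed in leukocytes from the blood of C57BL/6J mice, 10 weeks old, that had been inoculated with acute lymphoblastic leukaemia (ALL) and received dasatinib, a tyrosine kinase inhibitor. Blood was drawn 1 week after dasatinib was started, when every mouse was in remission, and treatment went on for 4 more weeks. The Relapsed group (6 mice) and the Cured group (6 mice) were named afterwards from the state of each mouse at day 100, so both groups had the same strain, age, leukaemia model and drug when blood was drawn. Frozen cells were thawed and live-sorted, and cells of 3 mice were pooled per library, which gave 2 Relapsed and 2 Cured libraries of droplet 5′ single-cell RNA sequencing. The pool is the replicate throughout.

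Each NK cell turns on only some of the Ly49 genes and keeps that choice, so that NK cells of 1 mouse differ in their receptors. Klra1 (Ly49A), Klra7 (Ly49G), Klra9 (Ly49I) and Klra6 (Ly49F) encode inhibitory receptors. Klra4 (Ly49D) and Klra8 (Ly49H) encode activating receptors that signal through the adaptor DAP12, the product of Tyrobp, and Ly49H is known for recognising a cytomegalovirus protein. Klrd1 encodes CD94, which pairs with NKG2A (Klrc1) in an inhibitory receptor or with NKG2C (Klrc2) in an activating one. Klrk1 encodes NKG2D, the activating receptor for stress-induced ligands, and Klre1 encodes a partner of the KLRI proteins.

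The libraries held 3631 and 4383 barcodes in Relapsed and 3859 and 4284 in Cured, with 7184045 to 10840397 UMIs each (unique molecular identifiers, 1 per captured RNA molecule). Between 20 and 29 barcodes were shared by any pair of libraries. Cells were assigned by marker genes, none of them among the 10. NK cells needed Ncr1 or Klrb1c with a further NK marker and no UMI of Cd3d, Cd3e, Cd3g, Cd5 or Cd8b1, and T cells needed a Cd3 gene with a further T marker. The NK gate took 177 and 209 cells in Relapsed and 155 and 165 in Cured libraries, and the T gate took 270 and 310 cells in Relapsed and 434 and 387 in Cured libraries. Of the markers of the NK gate, Gzma was found in 99.2% of gated NK cells, Tyrobp in 97.6%, Prf1 in 63.7% and Eomes in 28.2%. Of T cell genes that the gate does not bar, Trbc1 was found in 19.1%, Trbc2 in 11.9% and Trac in 2.69%, and Cd4 and Cd6 were at 0. Trdc, a gamma-delta T cell gene, was found in 8.22%, and Tcrg-C1 and Trgv2 were at 0. Median UMIs per NK cell were 1571 and 1773 in Relapsed libraries and 2053 and 1966 in Cured libraries, and those per T cell were 3054 and 3138 in Relapsed and 3523 and 3335 in Cured. This depth gap runs beside every share of cells compared between the groups.

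All 10 genes lie on chromosome 6 of GRCm38 (GENCODE M21). The NKG2-side genes occupy chr6:129577905-129660689, with Klre1 and Klrd1 on the plus strand and Klrk1 and Klrc2 on the minus strand. The 6 Ly49 genes lie within chr6:130013033-130386874, all on the minus strand, in the order Klra6, Klra4, Klra8, Klra9, Klra7 and Klra1 by rising coordinate. No annotated gene overlaps any of the 10. Several are near copies of each other or of neighbouring pseudogenes, and this limits the counts. Of the 50-base words in the first 500 bases of the annotated transcripts, the end that 5′ libraries read, 51.7% for Klra8 occur in the transcripts of another gene too. The share was 34.1% for Klrc2, which shares most with Klrc1, and 12.6% for Klra9. It was at most 5.79% for Klra1, Klra4, Klra6, Klra7 and Klre1, and 0 for Klrd1 and Klrk1. How reads that match several genes were counted is not given in the sources used here, so counts of Klra8, Klrc2 and Klra9 are the least certain.

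The promoters show the kinship of the Ly49 genes, and those of Klra4, Klra8, Klra9, Klra7 and Klra6 are printed because the co-detection and maturation results turn on Klra4, Klra8, Klra9 and Klra7, while Klra6 was the rarest of the 10 in NK cells. The sequences are the 130 bases before the start site, 5′ to 3′ on the minus strand, from RefSeq on GRCm38.p6. They lie at chr6:130067272-130067401 for Klra4, chr6:130129899-130130028 for Klra8, chr6:130193113-130193242 for Klra9, chr6:130026955-130027084 for Klra6 and chr6:130233323-130233452 for Klra7. Capitals mark the longest run shared by the first 4, which is 17 bases long and was found by comparing these promoters with each other.
Klra4: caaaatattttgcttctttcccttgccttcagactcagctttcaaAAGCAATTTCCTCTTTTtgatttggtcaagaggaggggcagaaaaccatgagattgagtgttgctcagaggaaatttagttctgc
Klra8: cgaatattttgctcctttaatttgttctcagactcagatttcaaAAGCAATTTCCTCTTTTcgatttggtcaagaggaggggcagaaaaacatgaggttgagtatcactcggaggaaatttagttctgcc
Klra9: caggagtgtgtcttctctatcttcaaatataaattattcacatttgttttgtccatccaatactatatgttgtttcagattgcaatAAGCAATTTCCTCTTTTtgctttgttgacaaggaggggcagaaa
Klra6: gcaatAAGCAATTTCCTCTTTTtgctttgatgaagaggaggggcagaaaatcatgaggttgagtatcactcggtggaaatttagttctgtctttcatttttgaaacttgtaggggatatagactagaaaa
Klra7: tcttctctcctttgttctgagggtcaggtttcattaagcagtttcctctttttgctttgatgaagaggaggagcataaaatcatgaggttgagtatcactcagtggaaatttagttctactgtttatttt
The run, AAGCAATTTCCTCTTTT, was searched on both strands of 32851 promoter windows (250 bases before to 50 after a start). It was present in 8 of them (0.0244%), which belong to Klra3, Klra4, Klra6, Klra8, Klra9, Klra17 and Gm52487. It begins 85 bases before the start in Klra4, 86 in Klra8, 44 in Klra9 and 125 in Klra6. Klra7 holds a version with 1 differing base, 95 bases before its start, and the closest match upstream of Klra1 has 7. Genes that share the run were found in very unequal shares of the NK cells, with Klra8 in 59.9%, Klra6 in 2.69% and Klra17 in 0 of 706 cells, which allows a share of up to 0.425%.

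In NK cells the NKG2-side genes Klrd1, Klre1 and Klrk1 were found in most cells, and each Ly49 gene in a part of them. Klrd1 was found in 78.5% and 80.9% of NK cells in Relapsed libraries and 89.0% and 82.4% in Cured libraries. Klre1 was found in 72.9% and 78.0% in Relapsed and 82.6% and 83.0% in Cured. Klrk1 was found in 61.0% and 68.4% in Relapsed and 76.1% and 78.8% in Cured. In these 3 genes the library ranges overlapped from one gene to the next. Klra8 was the most widely found Ly49 gene at this depth, with 56.5% and 60.3% in Relapsed and 65.8% and 57.6% in Cured, and its 4 libraries lay above those of Klra4, with 49.2% and 53.1% in Relapsed and 53.5% and 55.2% in Cured. Klra7 was found in 53.1% and 54.1% in Relapsed and 43.2% and 49.7% in Cured. Klrc2 was found in 38.4% and 44.0% in Relapsed and 45.2% and 45.5% in Cured, and Klra9 in 37.9% and 41.1% in Relapsed and 50.3% and 40.0% in Cured. The ranges of Klra4, Klra7, Klrc2 and Klra9 overlapped from one to the next. Klra1 stood apart with 10.7% and 14.8% in Relapsed and 16.1% and 16.4% in Cured. Klra6 was the rarest, with 3.39% and 1.91% in Relapsed and 3.87% and 1.82% in Cured, from 30 UMIs in all.

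These shares depend on depth and on free RNA in the droplets. With every cell thinned to 1000 UMIs, which 646 of the 706 NK cells reached, Klrd1 was found in 63.9%, Klra8 in 46.0%, Klra4 in 45.4%, Klra7 in 37.6%, Klra9 in 28.9% and Klra1 in 9.60%. At this depth Klra4 lay above Klra8 in Relapsed replicate 1 (39.9% and 39.2%) and Cured replicate 2 (48.7% and 44.8%), so the order of these genes depends on depth. In 11242 B cells, which should lack these receptors and had a median of 2145 UMIs against 1811 in NK cells, the shares were between 0 for Klra6, which allows up to 0.0267%, and 0.471% for Klrd1. The B cell gate left out cells with Ncr1 or Klrb1c, so these shares may understate free RNA. In monocytes the shares ran from 0 for Klra9 to 3.99% for Klrd1 and 4.84% for Klrk1. In neutrophils they ran from 0 for Klra6 to 1.15% for Klrd1.

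**Figure D1:**
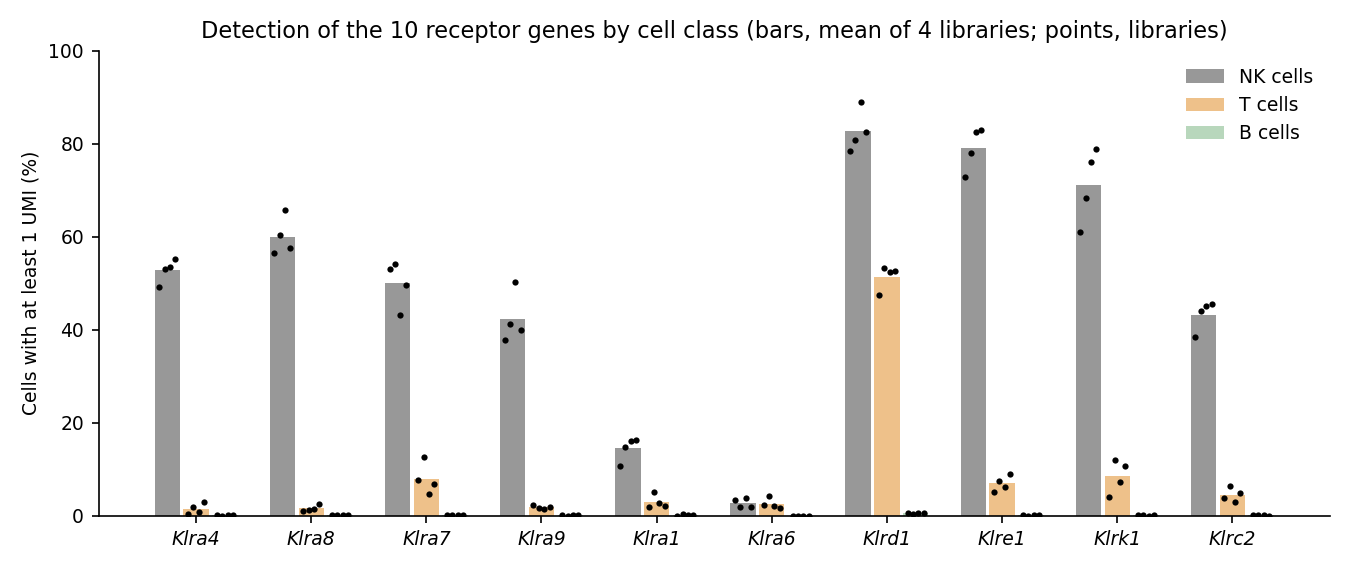
Share of cells with at least 1 UMI of each gene (y axis, %) in NK, T and B cells. Bars are means of the 4 libraries and points are the libraries. The shares in NK cells are above those in B cells for each gene, and Klrd1 is also found in 51.7% of all T cells, where each other gene is found in at most 8.57%.

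The Ly49 genes were also more unevenly spread among NK cells than the NKG2-side genes. The measure was taken at 1000 UMIs per cell, where a gene spread evenly would follow a Poisson distribution with a variance equal to its mean. Klra4 was found in 45.4% of NK cells where an even spread of its 1.10 UMIs per cell would give 66.8%, and its variance was 2.32 times its mean. The ratio of variance to mean was 1.93 for Klra8, 1.67 for Klra7, 1.64 for Klra9 and 1.67 for Klra1. It was 1.25 for Klre1, 1.21 for Klrd1, 1.16 for Klrc2 and 1.14 for Klrk1, and Klrk1 was found in 48.8% of cells where an even spread would give 51.5%. In every library the ratio of each of Klra1, Klra4, Klra7, Klra8 and Klra9 was above those of all 4 NKG2-side genes. Klra6 was too rare to place, with a ratio between 1.00 and 1.96.

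At full depth NK cells carried 2.22 of the 6 Ly49 genes on average, with library means of 2.11 and 2.25 in Relapsed and 2.33 and 2.21 in Cured. No Ly49 gene was found in 8.50% of NK cells, 1 in 15.6%, 2 in 35.3%, 3 in 27.9%, 4 in 11.3% and 5 in 1.42%, and no NK cell carried all 6. At 1000 UMIs per cell the mean was 1.69, and 14.7% of cells carried none. The split by the known direction of the receptors took these 6 genes at full depth. Of NK cells 64.9% carried an activating gene (Klra4 or Klra8) together with an inhibitory one, 13.2% an activating gene only and 13.5% an inhibitory gene only. Other Ly49 genes were not counted, among them Klra3 (Ly49C), with 80 and 109 UMIs in Relapsed and 61 and 125 in Cured NK cells. A gene missed or not counted in a cell can make it look single-sided. Cells with both kinds made up 59.9% and 67.0% in Relapsed and 65.8% and 66.7% in Cured libraries, which overlap.

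**Figure D2:**
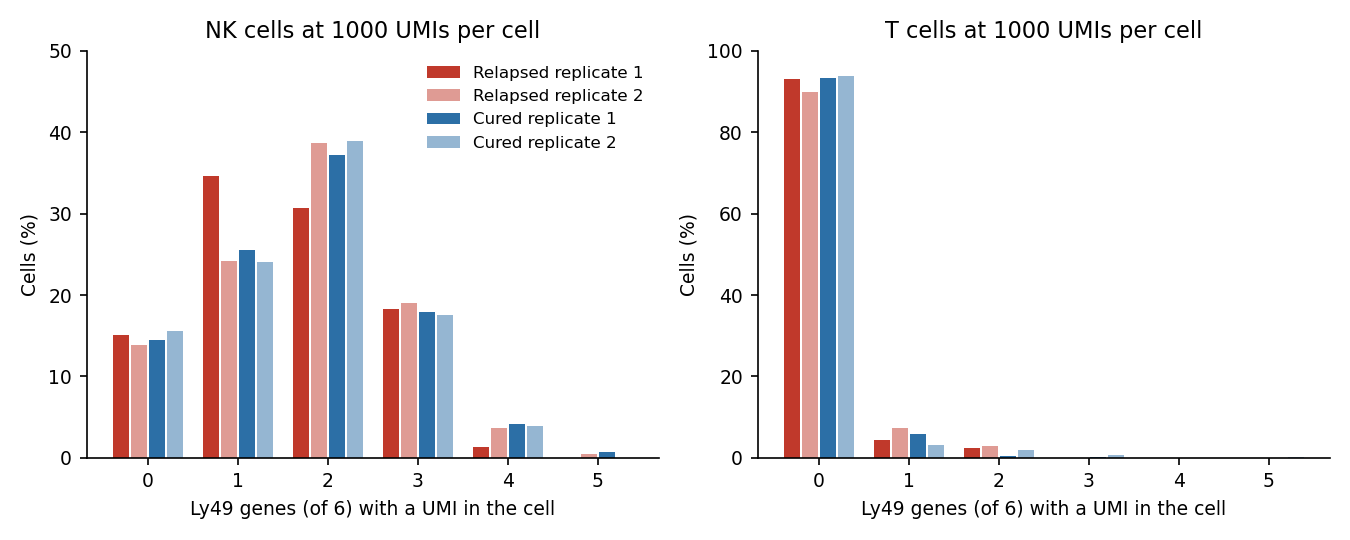
Share of cells (y axis, %) by the number of the 6 Ly49 genes with a UMI (x axis) after thinning to 1000 UMIs per cell, for NK cells (left) and T cells (right), with 1 bar per library. In NK cells the most frequent numbers are 1 and 2 in each library, and in T cells at least 89.8% of cells carry none.

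Pairs of Ly49 genes lay on both sides of what their single shares predict, and a few departures recurred in each library. The ratio of the observed share of cells with both genes to the product of their single shares was taken at 1000 UMIs per cell. Over the 15 Ly49 pairs its median was 0.954, with a range of 0 to 1.77 that includes pairs with few cells. It was above 1 for 7 pairs and below for 8, and 4 pairs lay above and 3 below in all 4 libraries. At full depth the median was 1.09, with 10 pairs above 1 and 5 below, and 5 and 3 pairs did so in all 4 libraries, so the side of 1 on which the typical pair lies depends on depth. The activating genes Klra4 and Klra8 were found together in 23.7% of NK cells where 20.9% was predicted, a ratio of 1.14, with 1.25 and 1.09 in Relapsed and 1.15 and 1.07 in Cured libraries. The ratio of Klra7 with Klra8 was 1.10, with 1.09 and 1.12 in Relapsed and 1.07 and 1.14 in Cured. The inhibitory gene Klra9 went the other way with Klra4, at 0.825, with 0.856 and 0.735 in Relapsed and 0.850 and 0.880 in Cured. With Klra7 its ratio was also 0.825, with 0.673 and 0.932 in Relapsed and 0.828 and 0.836 in Cured. At full depth the 4 ratios were 1.09, 1.12, 0.888 and 0.855, on the same side of 1 in every library.

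The pair Klra1 and Klra4 had the highest ratio among pairs with at least 40 cells, 1.42 from 40 cells, with 1.60 and 1.52 in Relapsed and 1.24 and 1.37 in Cured libraries. Klra1 and Klra4 also share transcript sequence, 4.26% of the 50-base words of Klra4, and its part in the ratio was not tested. Klra4 and Klra8 share no such word, and neither do Klra4 and Klra9 or Klra7 and Klra9. The 6 pairs of NKG2-side genes lay between 0.96 and 1.07, and CD94 with its partner NKG2C (Klrd1 and Klrc2) stood at 0.97. These ratios come from cells of 4 pools and carry no test, and cells of several mice are mixed in each.

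**Figure D3:**
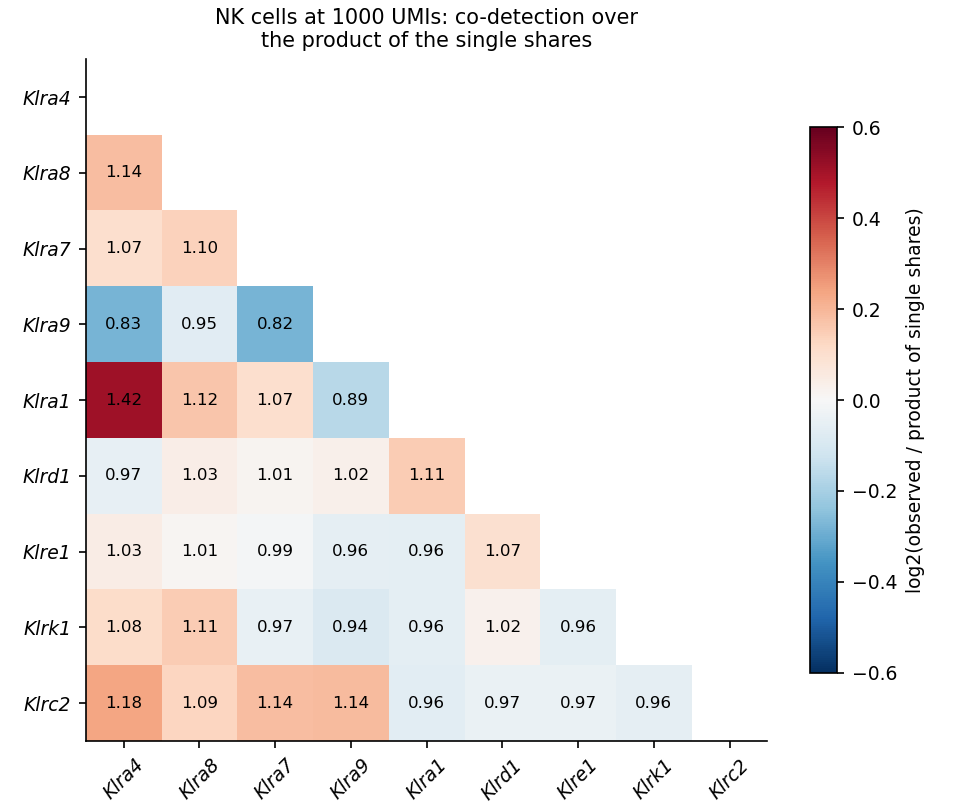
Ratio of the observed share of NK cells carrying both genes to the product of the single shares, at 1000 UMIs per cell and over the 4 libraries together, for 9 genes (Klra6, too rare, is left out). Red cells are above 1 and blue cells below, and Klra9 is below 1 with each other Ly49 gene shown.

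NK cells were then split by maturation. Mature-marked cells held more UMIs of Itgam, S1pr5, Zeb2, Klrg1, Cx3cr1 and Cma1 than of Cd27, Ctla2a, Ltb, Emb, Tcf7 and Cd7, and less mature-marked cells the reverse, which gave 387 mature-marked cells with a median of 1785 UMIs and 258 less mature-marked cells with a median of 2018. Klra9 was higher and Klra7 lower in mature-marked cells, and the other 7 receptor genes tested did not pass. Klra9 had 610, 657, 623 and 543 CPM (UMIs of the gene scaled to the summed UMIs of the class; Relapsed replicates 1 and 2, then Cured replicates 1 and 2) in mature-marked cells, against 181, 235, 425 and 207 CPM in less mature-marked cells. It was higher in mature-marked cells of all 4 libraries, and the 2 ranges did not overlap. The log2 fold change was 1.20 ± 0.14 (SE; adjusted p = 1.54e-11, edgeR's quasi-likelihood test with Benjamini-Hochberg adjustment and the library as a block). Klra7 had 573, 598, 472 and 469 CPM in mature-marked cells, against 717, 859, 708 and 768 CPM in less mature-marked cells, again without overlap, a change of -0.56 ± 0.11 (adjusted p = 5.38e-05, edgeR). Of 2218 genes tested 7.48% passed, 2.48% higher and 5% lower. In such sums fewer carrying cells and less RNA per cell cannot be told apart.

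By cells, Klra9 was found in 50.1% of mature-marked and 30.6% of less mature-marked NK cells, and Klra7 in 45.5% against 57.4%. The activating genes Klra4 (-0.10 ± 0.10) and Klra8 (0.09 ± 0.10) and the NKG2-side genes Klrd1 (-0.02 ± 0.09), Klrk1 (0.00 ± 0.11), Klre1 (0.13 ± 0.09) and Klrc2 (0.21 ± 0.14) did not pass, with adjusted p between 0.549 and 0.999 (edgeR), and neither did Klra1 (0.28 ± 0.33). Without Relapsed replicate 2 Klra1 came to 0.85 and passed (adjusted p = 0.0168, edgeR). Among the other family genes outside the gate, Klra3 (0.50 ± 0.16, adjusted p = 0.0240, edgeR) was higher and Klrc1 (-0.42 ± 0.13, adjusted p = 0.0290, edgeR) lower in mature-marked cells. Of 11 signalling genes tested, Fcer1g (0.20 ± 0.06, adjusted p = 0.00922, edgeR) alone passed, higher in mature-marked cells. Of 8 maturation factors tested 3 passed, the gate genes Zeb2 and Tcf7 and Irf8, which was higher (0.66 ± 0.13, adjusted p = 7.84e-05, edgeR). Klra3 shares 13.1% of the 50-base words of Klra9, and the part of shared reads was not tested. The low ratio of Klra9 with Klra4 held within both subsets, at 0.811 in mature-marked and 0.734 in less mature-marked cells, and that of Klra9 with Klra7 was 0.900 in mature-marked and 0.781 in less mature-marked cells. The ratio of Klra4 with Klra8 was 1.11 in mature-marked and 1.19 in less mature-marked cells. That of Klra7 with Klra8 was 1.03 in mature-marked cells, with 0.957 in Cured replicate 2, and 1.22 in less mature-marked cells.

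**Figure D4:**
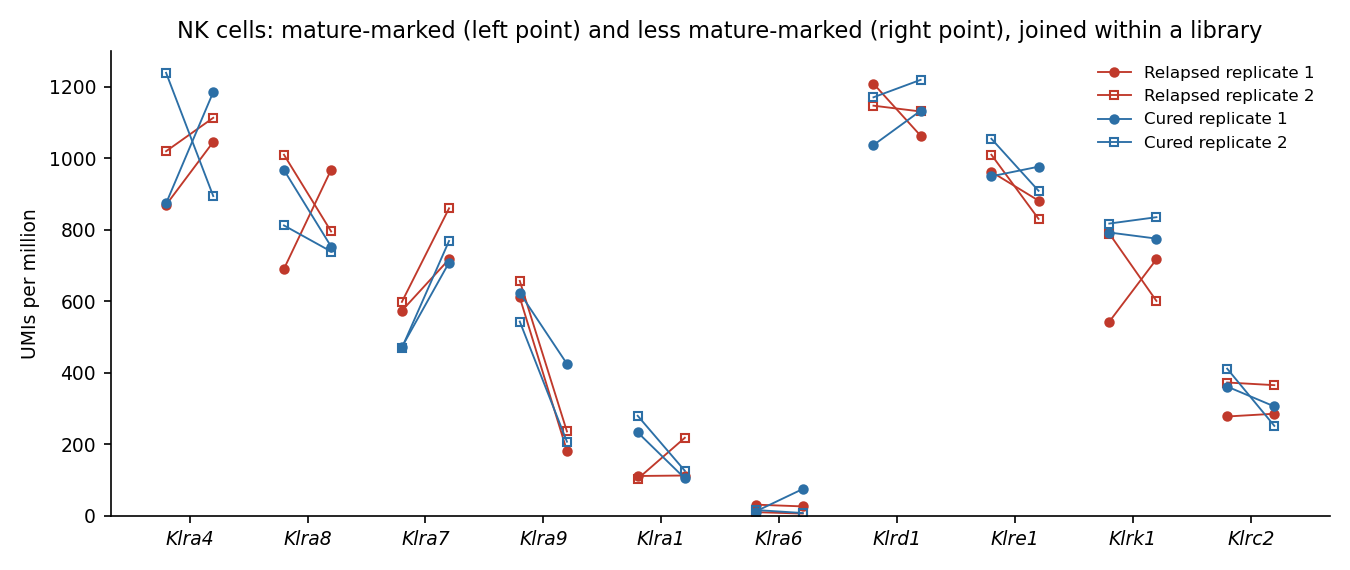
CPM of each gene (y axis) in mature-marked (left point) and less mature-marked (right point) NK cells, joined within a library and coloured by group. All 4 lines of Klra9 run down and all 4 of Klra7 run up from mature-marked to less mature-marked cells.

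NK cells were compared with T cells within the same libraries. Of 5417 genes tested, 38.4% passed in either direction, 18.1% higher and 20.3% lower in NK cells. Of the 10 genes 9 passed the filter on low counts, and each of the 9 was higher in NK cells. A gene abundant in NK cells alone can pass that filter, so the direction of such genes was close to fixed in advance. The count of 9 is therefore no separate result. Klra8 had 831, 919, 871 and 783 CPM in NK cells, against 7.34, 9.94, 5.16 and 27.2 CPM in T cells, a log2 fold change of 5.48 ± 0.34. Klra4 (5.4 ± 0.40) and Klra9 (5.11 ± 0.15) were close to it with this gate, but these sizes depend on how T cells are drawn. With classes from clusters, an alternative added after seeing the data, T cells held 3 UMIs of Klra4, 6 of Klra8 and 27 of Klra9, and the fitted values were 9.95 for Klra4, 8.75 for Klra8 and 5.81 for Klra9. With the strict gate, which allowed no UMI of the B cell and myeloid genes and no Ncr1 or Klrb1c in T cells, T cells held 1 UMI of Klra4, 3 of Klra8 and 13 of Klra9. At so few UMIs the fitted values of Klra4 and Klra8 carry no exact size. Klre1 (3.91 ± 0.13), Klrc2 (3.74 ± 0.15) and Klrk1 (3.27 ± 0.10) followed, then Klra7 (2.80 ± 0.13) and Klra1 (2.57 ± 0.19). Klrd1 had the smallest difference, 1.15 ± 0.07, with 1147, 1122, 1077 and 1207 CPM in NK cells, against 314, 381, 347 and 358 CPM in T cells. Klra6 was not tested and had 26.1, 10.0, 41.1 and 11.5 CPM in NK cells, against 8.56, 23.9, 9.67 and 7.34 CPM in T cells, which overlap.

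Of the 13 other family genes among the features, 7 were tested and all 7 were higher in NK cells, among them Klri2, a partner of KLRE1 (4.82 ± 0.19), Klra3, which encodes Ly49C (4.33 ± 0.19), and Klrc1 (2.29 ± 0.12). The same limit of the filter holds for this count. Of 17 genes of receptor signalling 15 were tested, of which 7 were higher and 4 lower in NK cells. Tyrobp (4.55 ± 0.29) and Fcer1g (4.27 ± 0.27), which encode adaptors of activating receptors, were higher, and both are also markers of the NK gate. Lck (-0.61 ± 0.08), the kinase of the T cell receptor, was lower. Hcst, the adaptor DAP10 of NKG2D, showed -0.04 ± 0.06 and did not pass (adjusted p = 0.608, edgeR).

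In T cells Klrd1 was found far beyond the cells that carried the other receptors. It was found in 47.4% and 53.2% of T cells in Relapsed and 52.3% and 52.7% in Cured libraries, in 62.1% of the 895 CD8 T cells and in 13.6% of the 154 CD4 T cells. CD8 T cells were split by UMIs of Ccl5 or Il2rb, genes of antigen-experienced and memory cells. Klrd1 was found in 62.0% and 60.2% (Relapsed) and 72.3% and 70.5% (Cured) of the 378 cells with such a UMI. It was still found in 56.3% and 56.4% (Relapsed) and 58.7% and 61.5% (Cured) of the 517 cells without one. At 1000 UMIs per cell the share in the cells without was 21.7% over all 4 libraries. It was 0.261% in B cells, whose gate left out cells with Ncr1 or Klrb1c. The difference in Klrd1 level, 0.21 ± 0.10 on the log2 scale, did not pass (adjusted p = 0.257, edgeR), where 6.47% of 3494 genes did, 3.26% higher and 3.21% lower.

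The other genes were found in CD8 T cells with Ccl5 or Il2rb, except Klra4, and in the 517 cells without them 1 UMI of Klra8 was counted and none of the remaining 8, which allows each of those a share of up to 0.580%. Klrk1 had 69 UMIs in the cells with Ccl5 or Il2rb and was found in 7.04% and 9.64% of them in Relapsed and 10.9% and 16.2% in Cured libraries. Against a floor of 3 UMIs over the group without, its counted level was 25.2-fold higher. That ratio was 21.9-fold for Klre1 (60 UMIs in 31 cells) and 20.4-fold for Klra7 (56 UMIs in 32 cells). For Klrc2 it was 5.48-fold (15 UMIs in 12 cells) and for Klra6 4.75-fold (13 UMIs in 10 cells). Klra1 stood at 4.02-fold from 11 UMIs in 5 cells, with 1 and 8 in Relapsed and 2 and 0 in Cured. The floor covers counting error in the group without only, and UMIs of 1 cell are not independent, so these ratios are no lower limits. Klra8 had 4 UMIs and Klra9 had 3 in the cells with Ccl5 or Il2rb, too few for a fold. Klrk1 passed the filter on low counts only through the cells with Ccl5 or Il2rb, so no test of it is given. Median depth was 4053 UMIs in the cells with Ccl5 or Il2rb and 3332 in those without. Klra4 was found in 0 of the 895 CD8 T cells, which allows up to 0.335%. Of the 556 CD8 T cells with Klrd1, 35 carried Klrc1 and 11 carried Klrc2, the 2 known partners of CD94. Of the signalling genes 8 were tested here, of which 3 were higher in the cells with Ccl5 or Il2rb and none lower: Sh2d1a (1.01 ± 0.14), which encodes the adaptor SAP, the kinase gene Fyn (0.67 ± 0.20) and Hcst (0.24 ± 0.08).

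Any Ly49 gene was found in 148 of 1401 T cells, with 10.4% and 15.5% of T cells in Relapsed and 8.29% and 9.30% in Cured libraries. Of the 148 cells 147 carried Ccl5 or Il2rb, 98 had no UMI that marks CD4 or CD8 cells, 44 were CD8 and 6 were CD4 T cells. The NK markers Ncr1 or Klrb1c were present in 77 of the 148, and those 77 cells held 431 of the 620 Ly49 UMIs. Klra7 led with 292 UMIs in 106 T cells, and 32 of these cells were CD8. The activating genes lay nearly all in T cells with an NK marker, with 80 of 81 UMIs of Klra4 and 56 of 61 of Klra8, against 183 of 292 of Klra7. Of the 148 cells 114 fell in the T cell clusters and 34, with 270 of the 620 Ly49 UMIs, in the NK cluster. The NK cluster took 78 of the 81 UMIs of Klra4 and 56 of the 61 of Klra8, but 98 of the 292 of Klra7. No doublet caller was run, and the part of droplets that held a T cell with an NK cell was not tested.

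The study set mice that later relapsed against mice that were cured, and this comparison was made for NK and for T cells. In NK cells none of the 4429 genes tested passed in edgeR (0%), where 295 had an unadjusted p below 0.05, and DESeq2 made 0 calls. No receptor gene passed. Klra1 showed the largest difference, with 104 and 150 CPM in Relapsed and 170 and 210 CPM in Cured libraries, a log2 fold change of -0.52 ± 0.25 (adjusted p = 0.711, edgeR). Klrk1 had 619 and 704 CPM in Relapsed and 769 and 832 CPM in Cured (-0.23 ± 0.16), and Klra7 had 651 and 734 CPM in Relapsed and 601 and 599 CPM in Cured (0.25 ± 0.17). In these 3 genes the libraries of the groups did not overlap, as was so for 37.7% of all genes tested (17.1% higher and 20.6% lower in Relapsed). Klra4 (-0.08 ± 0.15), Klra8 (0.12 ± 0.16), Klra9 (-0.05 ± 0.19), Klrc2 (-0.02 ± 0.19), Klrd1 (0.03 ± 0.15) and Klre1 (-0.02 ± 0.15) lay within 1 SE of 0. By share of cells, both Relapsed libraries lay below both Cured ones for Klra1, Klra4, Klrc2, Klrd1, Klre1 and Klrk1, in the direction of the depth gap, as was so for 38.2% of all genes tested. Klra7 went against it, with both Relapsed libraries above both Cured ones (7.63% of all genes, and 45.8% in either direction). At 1000 UMIs per cell 4 of the 6 still lay lower in Relapsed, namely Klra1, Klra4, Klrc2 and Klre1 (19.2% of all genes), and Klra7 higher (16.4%, and 35.6% in either direction), while Klrd1 and Klrk1 overlapped. At that depth Klra4 was found in 39.9% and 45.4% in Relapsed and 47.6% and 48.7% in Cured, and Klra7 in 39.9% and 43.3% in Relapsed and 28.3% and 37.0% in Cured. Klrd1 was found in 65.4% and 63.4% of NK cells in Relapsed and 62.8% and 64.3% in Cured libraries, and Klra1 in 7.19% and 8.25% in Relapsed and 11.7% and 11.7% in Cured.

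Klra1 had 111 and 103 CPM in mature-marked NK cells of Relapsed and 233 and 279 CPM in those of Cured libraries, and less mature-marked cells had 112 and 218 CPM in Relapsed and 104 and 126 CPM in Cured. These values were singled out after they had been seen and were not tested. No gene among the 7 other family genes, the 15 signalling genes and the 11 NK maturation factors tested passed either. Of the 15 signalling genes 8 had positive and 7 negative values. The highest was 0.76 ± 0.36 for the kinase gene Syk (adjusted p = 0.711, edgeR). The lowest was -0.62 ± 0.23 for Cd247 (adjusted p = 0.601, edgeR), which encodes the zeta chain.

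In T cells none of the 6992 genes tested passed in edgeR (0%), where 555 had an unadjusted p below 0.05, and DESeq2 made 0 calls. Klra7 showed the largest difference of the 10. It was found in 7.78% and 12.6% of T cells in Relapsed (exact 95% binomial intervals 4.88% to 11.6% and 9.10% to 16.8%) and in 4.61% and 6.72% in Cured libraries (2.84% to 7.03% and 4.44% to 9.69%). Its level was 64.8 and 114 CPM in Relapsed and 40.0 and 45.5 CPM in Cured, with both Relapsed libraries above both Cured ones, as was so for 16.5% of all genes tested (the groups lay apart for 38.3% in either direction and for 21.8% with Relapsed lower). The log2 fold change was 1.12 ± 0.25 (adjusted p = 0.267, edgeR). It did not pass here and did pass without Relapsed replicate 1 (1.45, where the lone Relapsed library is assumed to vary like the Cured ones), with no filter on low counts (1.10) and with the replicate number as a block (1.08). Without Relapsed replicate 2 it was 0.66.

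After this difference had been seen, Klra7 was followed in parts of the T cells. These values were not tested, and the share of all genes with groups apart was not taken there. In CD8 T cells Klra7 had 20.6 and 37.5 CPM in Relapsed and 8.0 and 9.74 CPM in Cured libraries. These came from 12 and 26 UMIs in Relapsed and 9 and 9 in Cured, 56 in all. In T cells without Ncr1 and Klrb1c it had 33.9 and 41.8 CPM in Relapsed and 21.4 and 11.3 CPM in Cured. In T cells with Ncr1 or Klrb1c, which held 183 of its 292 UMIs, it had 525 and 649 CPM in Relapsed and 542 and 409 CPM in Cured, which overlap. These cells, of which 57 of 95 carried Klra7, made up 5.56% and 11.6% of T cells in Relapsed and 3.69% and 7.24% in Cured, which overlap. Trdc, a marker of gamma-delta T cells, had 24.5 and 21.9 CPM in Relapsed T cells and 7.09 and 14.7 CPM in Cured T cells. The difference, 1.14 ± 0.39, did not pass (adjusted p = 0.474, edgeR). Trdc is no marker of those cells alone, with 55.4 and 47.6 CPM in Relapsed and 35.2 and 40.3 CPM in Cured NK cells. The summed level of the 9 markers of gamma-delta T, NKT and related cells, of which 9 and 8 had UMIs in Relapsed and 7 and 9 in Cured T cells, was 732 and 731 CPM in Relapsed and 759 and 693 CPM in Cured, of which Il7r, found widely in T cells, made up 622 and 612 CPM in Relapsed and 686 and 575 CPM in Cured. Without Il7r the sum was 110 and 119 CPM in Relapsed and 72.8 and 118 CPM in Cured, which overlap. Tcrg-C2 had 12.2 and 8.95 CPM in Relapsed and 0 and 7.34 CPM in Cured. The difference, 1.61 ± 0.80, did not pass (adjusted p = 0.651, edgeR). Tcrg-C1 had 8.56 and 5.97 CPM in Relapsed and 1.29 and 8.81 CPM in Cured, which overlap. So did Trgv2, with 18.3 and 29.8 CPM in Relapsed and 12.9 and 33.8 CPM in Cured. Of the 7 markers of this list that were tested, 5 had positive and 2 negative values, and none passed. The part of such cells in the Klra7 difference was not tested.

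Klra6 (1.00 ± 0.47, adjusted p = 0.626, edgeR) had 8.56 and 23.9 CPM in Relapsed and 9.67 and 7.34 CPM in Cured T cells, which overlap. The remaining 8 genes lay between -0.79 ± 0.65 for Klra8 and 0.71 ± 0.51 for Klra9, and Klrd1, the abundant one, showed 0.02 ± 0.17. None of the 5 other family genes, 13 signalling genes and 9 maturation factors tested in T cells passed. The Relapsed over Cured log2 fold change of Klra7 in NK cells minus that in T cells was -0.91 ± 0.21 (adjusted p = 0.0398, edgeR, interaction of group and cell class with the library as a block), where 0.122% of 6581 genes passed (0.0608% with a positive and 0.0608% with a negative difference). With classes from clusters it was -1.30 and passed (adjusted p = 5.17e-05, edgeR), and the call was lost under 6 of 9 alternatives, among them the strict gate (-0.70), and without Relapsed replicate 2 (-0.56).

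**Figure D5:**
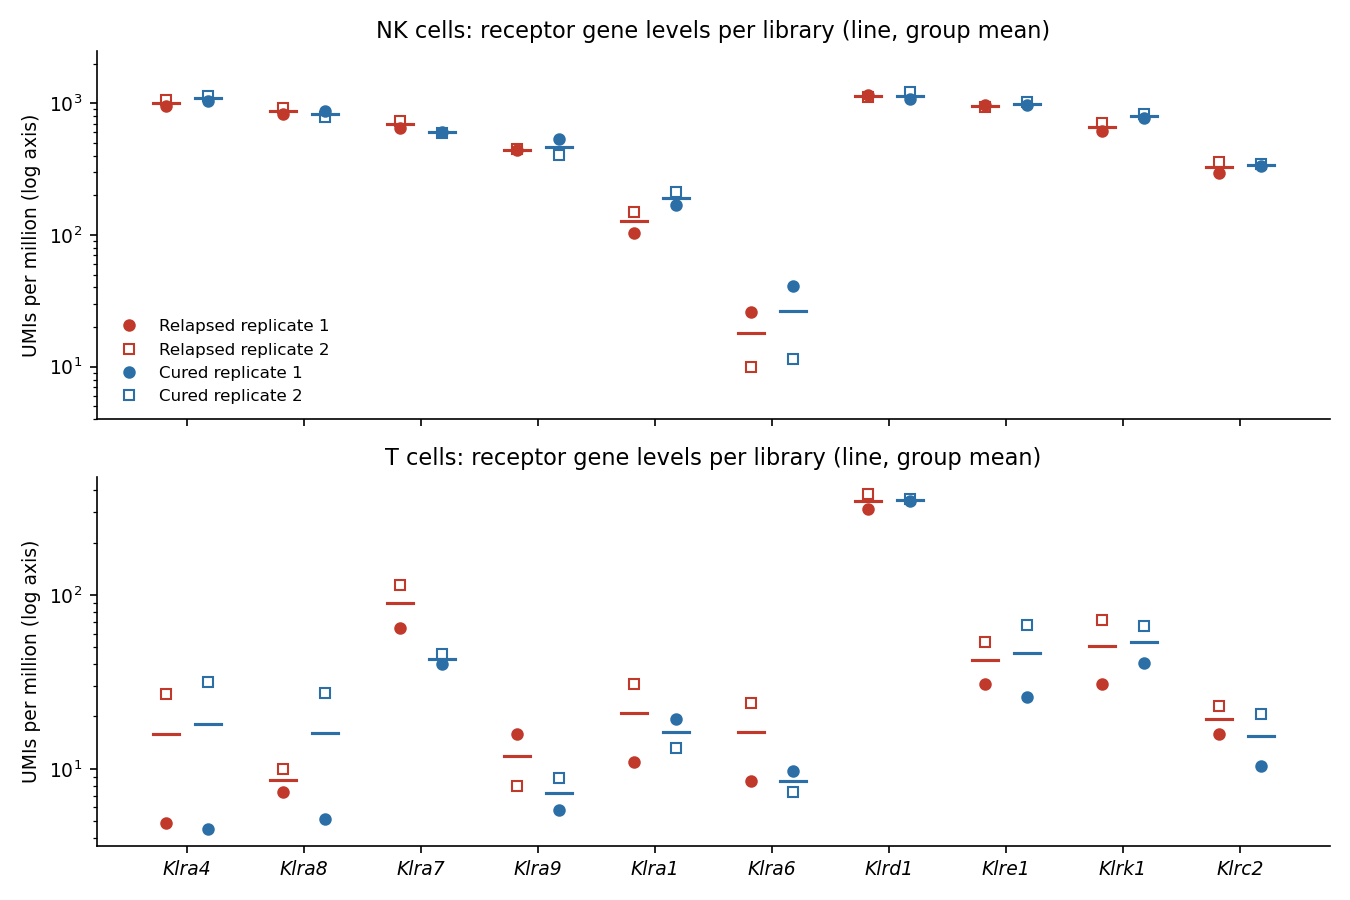
CPM of each gene (y axis, log scale) in NK cells (top) and T cells (bottom), with 1 point per library, Relapsed left of Cured, and a line at each group mean. In NK cells the points of the groups lie apart for Klra1, Klra7 and Klrk1, as for 37.7% of all genes tested. They overlap for each other gene, the rare Klra6 included. In T cells both Relapsed points of Klra7 (64.8 and 114 CPM) lie above both Cured points (40.0 and 45.5 CPM).

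Genes with the most similar pattern were sought over 32 profiles, the sums of 8 cell classes in each of the 4 libraries, by Pearson's r of log2(CPM + 10) among 5029 genes. With the summed Ly49 genes the most similar were Gzma (0.979), Klrb1c (0.960), Ncr1 (0.958), Klri2 (0.946) and Fasl (0.943), of which the first 3 were used in the NK gate. With the summed NKG2-side genes they were Nkg7 (0.978), Ctsw (0.975), Hsd11b1 (0.954), Cst7 (0.95) and AW112010 (0.949). The profiles share libraries, so these values describe the pattern only.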

How the data were processed

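The authors deposited raw UMI counts per gene and cell barcode for 4 libraries, made with Cell Ranger 3.1.0 against mm10, per the submitters' processing notes, with the 10x Genomics 5′ kit, per the labels' protocols. The annotation release is not given in the sources used here. Barcodes with fewer than 200 genes or more than 10% mitochondrial UMIs were left out, which left 15439 of 16157. Gates followed fixed markers, and cells with more than 2 UMIs of B cell genes or of myeloid genes were left out of the NK and T gates. No doublet caller was run. Leiden clusters made without the 10 genes (scanpy 1.11.5) held 99.7% of gated NK and 96.9% of gated T cells as the same class.

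UMIs were summed per library and class and tested with edgeR 4.0.16 on R 4.3.3 (TMM, filterByExpr, robust quasi-likelihood fit, Benjamini-Hochberg adjustment over all genes tested, threshold 0.05), with DESeq2 1.42.0 as an alternative. SEs are the log2 fold change over the square root of F. Class contrasts took the library as a block. The test was tested on simulated data. CPM, co-detection ratios and thinned shares were computed from the deposited counts. UMI counts are not divided by gene length, since each molecule is read at 1 end, so levels of different genes also differ by capture and by unique sequence. With 2 libraries against 2, the smallest two-sided p of an exact permutation test is 0.333. Binomial intervals and limits from a count of 0 (3 counts) cover counting error only. The p-values between Relapsed and Cured libraries refer to the spread between pools of 3 mice. With the library as a block, those of the class contrasts and of the interaction refer to how far the class difference varies between libraries. In each fit edgeR draws a gene's spread towards a trend over all genes. The median weight of that trend (prior degrees of freedom) was 33.4 in NK and 16.1 in T cells between the groups. It was 2464 between NK and T cells, 123 by maturity, 119 in CD8 T cells and 73.2 for the interaction. For most genes the p-values therefore rest mainly on the spread over many genes, and little on that of the gene itself. Promoter windows were matched by symbol for 9 of the 10 genes.

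The 10 genes, the other lists and the marker gates were chosen with earlier results of these data known. The genes named are the 10 and the listed family, signalling, ligand, maturation and cell type genes, with the 5 most similar genes for each summed level. Klra13-ps, on the family list, is not used here. Alternatives were another scaling, no count filter, each library left out, thinning, a strict gate (no UMI of the B cell and myeloid genes, and no Ncr1 or Klrb1c in T cells), classes from clusters, DESeq2 and the replicate number as a block. Classes from clusters were added for NK against T cells after seeing the data.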

Additional observations from a re-analysis of the deposited data

Results flagged for a closer look

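The Relapsed over Cured log2 fold change of Klra7 in NK cells minus that in T cells was -0.91 ± 0.21 (SE; adjusted p = 0.0398, edgeR, interaction of group and cell class). It was flagged because this interaction passed the test. The call was kept with classes from clusters and lost under 6 alternatives, among them RLE size factors and the strict gate, so it is not firm. The change itself was 0.25 ± 0.17 in NK cells and 1.12 ± 0.25 in T cells, and neither passed the test in its own class. In T cells both Relapsed libraries (64.8 and 114 CPM) lay above both Cured libraries (40.0 and 45.5 CPM), and Relapsed replicate 2 was the highest of the 4.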

How the results depend on the processing

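Klra9 and Klra7 passed the test between mature-marked and less mature-marked NK cells under each of the 7 alternatives, at 0.84 to 1.5 and -0.63 to -0.48 on the log2 scale, and the 9 receptor genes tested between NK and T cells did so under theirs, where classes from clusters were added after seeing the data. For genes abundant in NK cells alone, passing between NK and T cells was close to fixed by the filter on low counts. Of 442 alternative values over 49 results on single receptor genes, 379 kept direction and call, 6 lost the call, 5 gained it and 52 changed sign, none of these past the test before or after. All 6 lost calls were of Klra7. They concerned the Relapsed over Cured change in NK cells minus that in T cells, below called the difference between NK and T cells. Its values were -0.89 with RLE size factors, -0.80 thinned to 1000 UMIs, -0.70 with the strict gate, and -1.14 to -0.56 over the libraries left out. The 5 gained calls were 3 for Klra7 in T cells (1.10 with no count filter, 1.45 without Relapsed replicate 1 and 1.08 with the replicate block), 1 for Klra8 in the difference between NK and T cells (1.73 without Cured replicate 1) and 1 for Klra1 by maturity (0.85 without Relapsed replicate 2).

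Between Relapsed and Cured libraries, genes past the test numbered 0 in NK cells against 5 with no count filter, 5 thinned, 3 from clusters and 0 to 181 with a library left out, and 0 in T cells against 29, 3, 1 and 2 to 366. Both highest counts came without Relapsed replicate 2. Between libraries of the same replicate number the correlation of deviations from the group mean was -0.02 in NK and 0.11 in T cells. With 2 libraries per group this cannot settle whether the numbers stand for a pairing. With the number as a replicate block 1 gene passed in NK and 35 in T cells. Between NK and T cells 2082 genes passed, against 946 thinned. For the difference between NK and T cells it was 8, against 4 thinned, 1 with the strict gate, 22 from clusters and 4 to 14 with a library left out. By maturity it was 166, against 104 with no filter and 82 thinned. In CD8 T cells it was 226, against 113 thinned and 143 to 218 with a library left out. The mean share of NK cells over the 10 genes was 49.9%, against 36.9% thinned, and the mean number of Ly49 genes per cell was 1.69 thinned, against 2.22 at full depth. The causes were not tested.

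The changes of sign, none past the test, were these log2 values. In NK cells, Relapsed over Cured, the strict gate gave 0.024 for Klre1, -0.0075 for Klrd1, 0.060 for Klrc2 and 0.033 for Klra9, and clusters gave 0.025 for Klre1 and 0.015 for Klra4. In T cells thinning gave 0.25 for Klre1, -0.38 for Klrk1 and -0.13 for Klra1, no count filter gave -0.0024 for Klrd1, the strict gate gave -0.73 for Klrk1 and the replicate block gave -0.045 for Klrk1. For the difference between NK and T cells thinning gave 0.086 for Klrd1, 0.31 for Klrk1, 0.30 for Klra4 and 0.80 for Klra9, the strict gate gave 1.73 for Klre1, 0.48 for Klrk1 and 1.68 for Klra4, and clusters gave 0.21 for Klre1, 0.0051 for Klrd1 and 3.06 for Klra4. By maturity no count filter gave 0.062 for Klrd1 and RLE gave -0.0037 for Klrk1. With a library left out, NK values ran over -0.069 to 0.010 for Klre1, -0.023 to 0.082 for Klrd1, -0.18 to 0.10 for Klrc2 and -0.26 to 0.19 for Klra9. T cell values ran over -0.55 to 0.71 for Klre1, -0.11 to 0.14 for Klrd1, -0.72 to 0.47 for Klrk1, -1.74 to 1.83 for Klra4, -1.53 to 0.73 for Klra8 and -0.52 to 0.93 for Klra1. The difference between NK and T cells ran over -0.76 to 0.48 for Klre1, -0.14 to 0.10 for Klrd1, -0.64 to 0.34 for Klrk1, -1.92 to 1.5 for Klra4 and -0.74 to 1.73 for Klra8. By maturity the values ran over -0.078 to 0.018 for Klrd1, -0.14 to 0.10 for Klrk1, -0.30 to 0.010 for Klra4, -0.014 to 0.26 for Klra8 and -0.068 to 0.85 for Klra1.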

Other observations

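Klra2, which encodes Ly49B, was the one family gene found mainly outside the lymphocytes. It was found in 37.0% and 39.8% of monocytes in Relapsed and 34.2% and 50.5% in Cured libraries, from 237 UMIs in 351 cells, and the groups overlap. It was found in 0 of 706 NK cells, which allows up to 0.425%, and in 2 of 1401 T cells and 22 of 11242 B cells (0.196%).

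Of the 7 listed ligand genes, 3 passed the filter on low counts in NK cells. H2-K1, a classical MHC class I gene, was lower in mature-marked than in less mature-marked NK cells (-0.24 ± 0.06 on the log2 scale, adjusted p = 0.00291, edgeR). H2-T23, which encodes the ligand of CD94 with its NKG2 partners, was lower in CD8 T cells with Ccl5 or Il2rb than in those without (-0.39 ± 0.12, adjusted p = 0.0204, edgeR). No ligand gene tested passed between Relapsed and Cured libraries in NK or in T cells (edgeR).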
